A study of Schizosaccharomyces pombe with 8 samples.

Results

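RNA levels of a fission yeast strain labelled iec1 and of a strain lacking iec5, with 2 libraries each, were compared directly with each other, without wild type in the contrast. These are 4 of the 8 RNA sequencing libraries of the series, taken by their labels, and the comparison covers 5137 coding and 1528 noncoding features. Schizosaccharomyces pombe was used throughout. The labels give the genotypes WT (strain SPJ1577), nht1-delta (CS2354), iec1-delta (CS2379) and iec5-delta (CS2370), with 2 libraries each, and no further allele. All cells grew in YEA, a rich yeast extract medium, to mid-log phase, and directional libraries were built from RNA after ribosomal RNA had been removed. The labels do not say whether the 2 libraries of a group came from separate cultures or from more than 1 clone, so the p-values measure the spread between these libraries, which may be technical.

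INO80 is a large remodelling complex that uses ATP to slide nucleosomes and to exchange histones, around a core of the Ino80 ATPase, Rvb helicases and actin-related proteins. Nht1, Iec1 and Iec5 are accessory subunits, of which Iec1 has zinc fingers and Nht1 an HMG box. In fission yeast the complex is known for keeping nucleosomes in order at promoters, for its part in the phosphate and nucleotide responses, and for its link to CENP-A and heterochromatin. A direct comparison of strains labelled as deletions of accessory subunits asks where their transcripts differ.

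The genes named by the labels were examined first. Reads of iec1 (SPAC144.02, chromosome I, 4652937 to 4654387, build ASM294v2) came to 95.4 and 88.4 CPM (a feature's counts scaled by the size of its library) in the libraries labelled iec1, and to 46.8 and 34.4 CPM in the iec5 libraries. The gene named by the label was therefore higher in the libraries that should lack it, by a log2 fold change (libraries labelled iec1 over iec5 libraries) of 1.18 (SE 0.21, edgeR p adjusted over all tested genes = 0.00315), which goes against the label. Its antisense feature SPNCRNA.1010, which shares 145 bases with it, was higher as well, at 23.4 and 19.7 CPM against 4.94 and 7.29 (log2 fold change 1.79, adjusted p = 0.00255). The next gene, ade2, an enzyme of purine synthesis, had 1400 and 1210 CPM against 1040 and 892 and did not pass (log2 fold change 0.43, adjusted p = 0.0664). For these reasons the strain is called by its label only, and every direction below is that of the libraries labelled iec1.

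Reads of iec5 (SPAPB1E7.14, chromosome I, 3321855 to 3323689) were low in the libraries named for its loss, at 3.29 and 1.46 CPM (10 and 5 counts), against 8.71 and 15 CPM (19 and 51 counts) in the libraries labelled iec1. The ratio of pooled counts was 5.4 (exact 95% interval 3.06 to 10.2, counting error only), and the log2 fold change was 2.36 (SE 0.48, adjusted p = 0.00739). Of its 1835 bases, 1012 overlap mns1 on the other strand, which did not pass (log2 fold change -0.44, adjusted p = 0.124). Reads of nht1 did not differ by more than the spread, at 41.3 and 58.4 CPM against 40.2 and 52.5 (log2 fold change 0.12, adjusted p = 0.843). In the libraries labelled nht1 they came to 24.9 and 34.9 CPM (79 and 96 counts), below the 48.6 and 41.6 CPM of wild type but not absent, so nht1 below is a label too. The iec1 call ended without iec5 replicate 2 (adjusted p = 0.0538), that of SPNCRNA.1010 without iec5 replicate 1 (0.0599), and that of iec5 without iec1 replicate 2 or iec5 replicate 2 (0.0966 and 0.12).

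Coding totals ran from 2208165 counts in iec1 replicate 1 to 3426063 in iec5 replicate 2, and noncoding totals from 374760 to 540394 over the 8 libraries. A count of 3, the floor used here, equals 0.875 to 1.38 CPM. Replicates correlated across genes at 0.981 to 0.986 (log2 CPM, a description), and their scatter exceeded counting error, with a chi-square per degree of freedom of 6.9 to 9.34. Although the library kit is directional, the deposited counts do not keep the strands apart in most places. All 211 coding genes that lie inside a coding gene of the opposite strand have 0 counts in all 8 libraries, and of 198 noncoding features lying inside 1 opposite gene, 170 have as many reads per base as that gene within 2-fold. Of all coding features, 5.53% had 0 counts in all libraries. Reads in a stretch shared by 2 coding genes thus appear to count for neither gene. The counts of a called gene that overlaps another coding gene may therefore come from its unshared part alone, and the other gene is named beside it.

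Most differences between both strains ran one way. Of 4652 coding genes that passed the low-count filter, 187 (4.02%) were higher and 32 (0.688%) lower in the libraries labelled iec1 than in the iec5 libraries, or 219 (4.71%) in either direction, by the edgeR quasi-likelihood test at a Benjamini-Hochberg adjusted p under 0.05. The median log2 fold change of all tested genes was 0.02. The shares of 4.02% higher and 0.688% lower are the background for each count of called list members below. Among the higher genes the log2 fold change ran from 0.43 to 6.72 (a fitted value for gdt1, which had no iec5 reads) with a median of 0.96, and 85 were at 1 or more. Among the lower genes its size ran from 0.45 to 4.04 with a median of -0.72, and 7 were at 1 or more. In all 219 the 2 groups of libraries did not overlap, which a call with 2 libraries a group makes likely. Over all 4652 tested genes the groups did not overlap either in 1140 that were higher and 1009 that were lower in the libraries labelled iec1. Of the higher genes 73, and of the lower genes 14, overlap another coding gene. Over all 5137 coding features, tested or not, 2178 overlap another on the opposite strand and 680 on the same strand, and a feature may count in both. Leaving out iec1 replicate 1 gave 107 higher and 18 lower, leaving out iec5 replicate 1 gave 104 and 11, and leaving out iec5 replicate 2 gave 71 and 15. A fit of the 4 libraries alone gave 137 and 18, and 56 calls (50 higher, 6 lower) held under every alternative tried other than the 2-fold minimum. A gene whose call is said below to have held throughout was called in these alternatives, the 2-fold minimum aside.

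**Figure D1:**
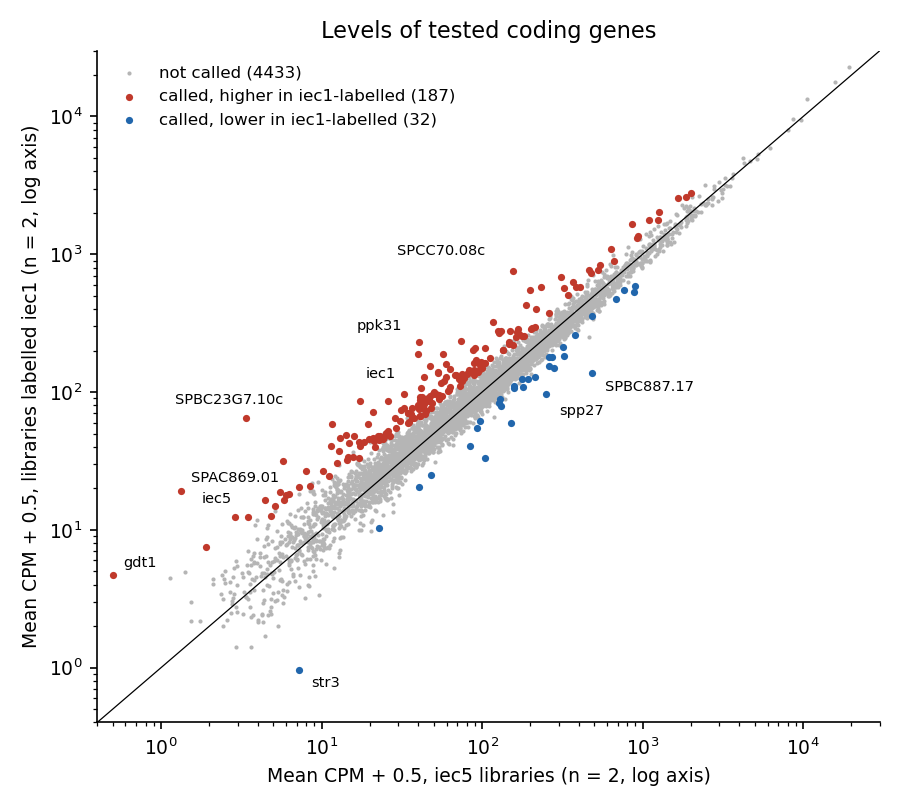
Mean CPM plus 0.5 of each tested coding gene in the iec5 libraries (x, log axis) and in the libraries labelled iec1 (y, log axis), 2 libraries each, with the line of equal level. The 187 higher genes (red) lie above the band of uncalled genes (grey) at low and high levels alike, and the 32 lower genes (blue) include SPBC887.17, spp27 and str3.

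A wide difference was that of SPBC23G7.10c (chromosome II, 2118146 to 2119536), annotated as an NADH-dependent flavin oxidoreductase. It had 53.2 and 74.9 CPM (116 and 255 counts) in the libraries labelled iec1 and 1.65 and 4.08 CPM (5 and 14 counts) in the iec5 libraries. Wild type had 13.0 and 18.7 CPM and nht1 28.6 and 37.8. The size of the ratio thus rests on few iec5 counts. The iec5 libraries were thus the lowest and those labelled iec1 the highest of all 8, with a pooled ratio of 22.6 (exact 95% interval 14.3 to 38, counting error only; log2 fold change 4.44, SE 0.37, adjusted p = 1.47e-06). The noncoding feature SPNCRNA.1487 lies 675 bases upstream on the same strand and was higher too, at 212 and 176 CPM against 28.0 and 45.8 (log2 fold change 2.38, adjusted p = 6.6e-08). That feature covers mag2, a DNA glycosylase gene of the other strand, which had 0.583 to 4.41 CPM in these 4 libraries and did not pass (log2 fold change 0.64, adjusted p = 0.759). Its counts do not show which stretch of the feature the reads came from.

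A further 4 genes were higher by a log2 fold change above 2 with small adjusted p-values. The kinase gene ppk31 (chromosome II, 1212690 to 1216671) had 249 and 209 CPM against 42.5 and 37.3 (log2 fold change 2.52, SE 0.17, adjusted p = 1.4e-07). SPCC70.08c, annotated as a methyltransferase (chromosome III, 2367804 to 2368636), had 701 and 804 CPM against 152 and 160 (2.27, SE 0.18, adjusted p = 7.01e-07). SPBC609.01, a Dis3-like exonuclease gene (chromosome II, 3155857 to 3161616), had 189 and 186 CPM against 41.2 and 37.0 (2.26, SE 0.16, adjusted p = 3.09e-07). In each of these 3 genes every library labelled iec1 exceeded every other library of the series, with nht1 libraries next. They differ in where the iec5 libraries stood: ppk31 had 39.6 and 41.9 CPM in wild type, close to its iec5 values, whereas SPCC70.08c had 59.5 and 85.3, and SPBC609.01 20.2 and 21.4, both below their iec5 values. The fourth, SPBC18H10.05, a WD-repeat gene that overlaps swd2, had 101 and 70.8 CPM against 12.5 and 21.0 (2.34, SE 0.27, adjusted p = 4.46e-05), with 16 and 16.2 in wild type and 23.9 and 25.8 in nht1. The calls of these 5 genes held throughout. Among the 15 largest higher calls were also 3 genes of low level, SPAC9G1.14 (overlapping wis4), the dehydrogenase gene SPCC1739.08c (overlapping cti1) and SPCC737.04 (overlapping ima1), with log2 fold changes of 1.99, 1.99 and 1.86 (adjusted p = 0.0174, 0.0125 and 0.00442). The call of SPAC9G1.14 ended without any 1 of the 4 libraries (0.0632 to 0.176), that of SPCC1739.08c without iec5 replicate 1 or iec1 replicate 2 (0.119 and 0.064), and that of SPCC737.04 without iec5 replicate 1 (0.0508).

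**Figure D2:**
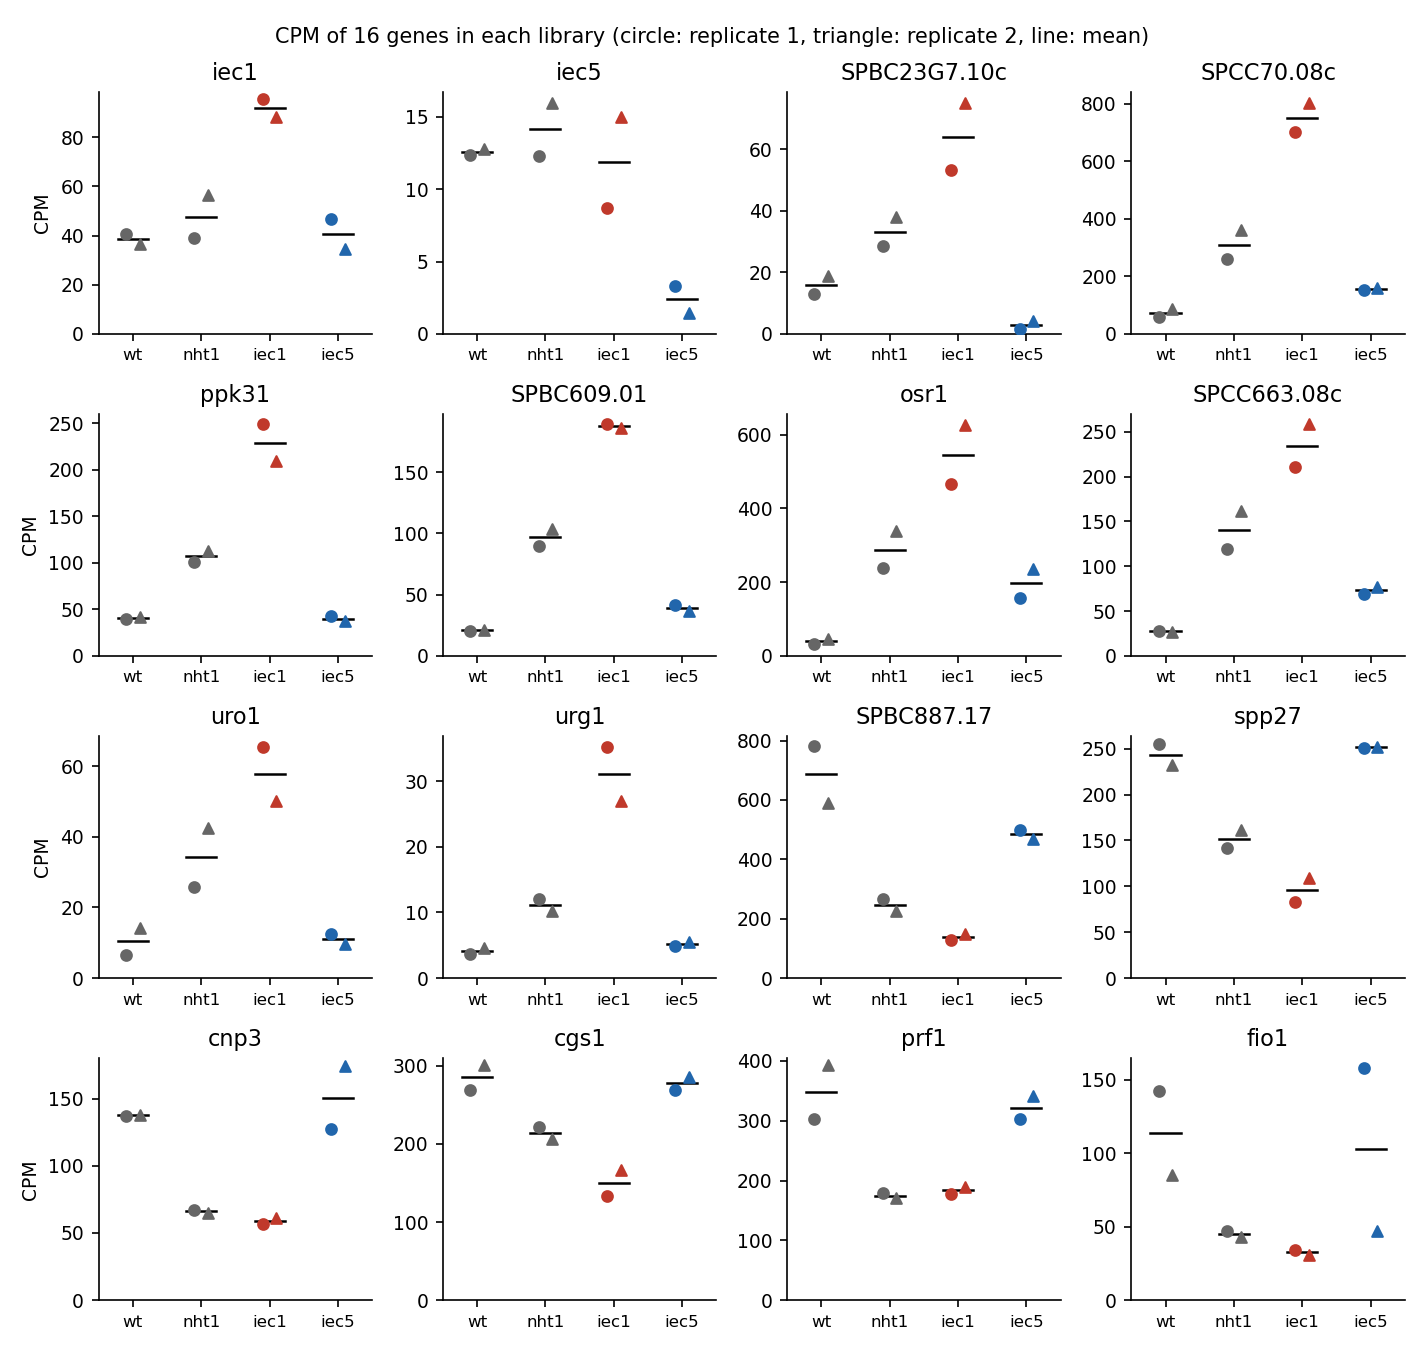
CPM of 16 genes in the 8 libraries, by label (circle replicate 1, triangle replicate 2, line the mean of the 2; every axis starts at 0). All panels show called genes, so the libraries labelled iec1 (red) and the iec5 libraries (blue) do not overlap, as in every call. In fio1 the 2 iec5 libraries lie apart, at 158 and 47 CPM.

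Several genes for taking up and breaking down nucleobases were higher in the libraries labelled iec1. Of 25 genes in the list of nitrogen starvation and nucleobase use, all of which passed the filter, 6 (24.0%) were higher in the libraries labelled iec1 and none was lower, by edgeR (DESeq2 called 5 higher and 0 lower, and 15 of the 25 had an unadjusted edgeR p under 0.05), beside 4.02% higher and 0.688% lower over all tested coding genes. The median log2 fold change of the list was 0.42 and 22 of its 25 genes had a value above 0. The list was chosen with earlier results of these data known, so its share is a description and not a test. Uro1, annotated as a uricase, had 65.6 and 50.2 CPM against 12.5 and 9.62 (log2 fold change 2.38, SE 0.33, adjusted p = 0.000296). Urg1, a gene induced by uracil and annotated as a GTP cyclohydrolase II, had 35.3 and 27 CPM against 4.94 and 5.54 (2.55, SE 0.34, adjusted p = 0.00018). Both libraries labelled iec1 were above all 6 other libraries in these 2 genes. Urg2, a putative uracil phosphoribosyltransferase, had 22.5 and 17.6 CPM against 7.25 and 6.12 (1.57, adjusted p = 0.0223). Xan1, the dioxygenase that turns xanthine into urate, had 22.9 and 17.6 CPM against 9.22 and 6.71 (1.34, adjusted p = 0.0337). The other 2 were amt1, an ammonium transporter, at 109 and 80.2 CPM against 52.1 and 55.1 (0.81, adjusted p = 0.018), and per1, an amino acid permease, at 70.2 and 59 against 41.5 and 30.9 (0.83, adjusted p = 0.0465). Outside the list, SPCC285.05, annotated as a purine nucleoside transporter, had 56.4 and 35.2 CPM against 10.9 and 14.3 (1.84, SE 0.29, adjusted p = 0.00113).

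Each of iec1 replicate 1, iec5 replicate 1 and iec5 replicate 2, when left out, took this list from 6 to 2 genes. The calls of uro1, urg1 and SPCC285.05 held throughout, that of urg2 ended without iec1 replicate 1, iec5 replicate 1 or iec5 replicate 2 (adjusted p = 0.125, 0.0876 and 0.181), and that of xan1 ended in 8 alternatives (0.051 to 0.287), including without any 1 of the 4 libraries and by DESeq2 (0.0599). That of amt1 ended without iec1 replicate 1, iec5 replicate 1 or iec5 replicate 2 (0.207, 0.105 and 0.0859), and that of per1 in 7 alternatives (0.0508 to 0.354), among them without any 1 of the 4 libraries or either nht1 library. The purine and pyrimidine synthesis list had 1 call among 22 tested genes and a median of 0.01: ade9, an enzyme of folate and purine synthesis that overlaps crs1, was lower at 526 and 574 CPM against 766 and 763 (-0.47, adjusted p = 0.0285). Its call ended without iec1 replicate 1, iec5 replicate 1 or iec5 replicate 2 (0.206, 0.147 and 0.173) and with the 4 libraries alone (0.0615), and DESeq2 called 1 gene of the list higher and 2 lower.

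Among core stress response genes, 6 of 39 tested (15.4%) were higher and 1 (2.56%) was lower, beside 4.02% and 0.688% over all tested coding genes, with a list median of 0.16. These shares too are a description, as the list was chosen with earlier results of these data known. Caf5, a plasma membrane spermine transporter, had 268 and 380 CPM against 97.2 and 136 (log2 fold change 1.48, SE 0.21, adjusted p = 0.000296). Osr1, a dehydrogenase gene (chromosome III, 1644754 to 1645876), had 466 and 626 CPM against 157 and 237 (1.47, SE 0.21, adjusted p = 0.000296). Cta3, a P-type ATPase for ion export, had 102 and 97.2 CPM against 45.8 and 53.1 (1.01, SE 0.19, adjusted p = 0.0038). For caf5 and osr1 the iec5 libraries also stood above wild type, which had 50.7 and 79.5 CPM of caf5 and 33.5 and 45.2 of osr1. Gst2, a glutathione S-transferase, had 1460 and 1860 CPM against 756 and 954 (0.96, adjusted p = 0.00534), and obr1, annotated as a quinone-reducing NAD(P)H dehydrogenase, had 2060 and 2010 against 1180 and 1350 (0.68, adjusted p = 0.0242). Tpx1, the peroxiredoxin, had 774 ± 135 CPM against 527 ± 70.5 (SD, n = 2 each; 0.55, adjusted p = 0.0369). The single lower member was tps1, which makes trehalose phosphate and overlaps dbl4, at 248 and 265 CPM against 347 and 405 (-0.55, adjusted p = 0.0235). The gst2 call ended without iec5 replicate 1 (0.0688), and that of tpx1 without iec1 replicate 1, iec5 replicate 2 or either nht1 library (0.355, 0.35, 0.0624 and 0.0615) and with the 4 libraries alone (0.0781). The tps1 call ended without iec1 replicate 1 or iec5 replicate 2 (0.147 and 0.284) and with the 4 libraries alone (0.0521), and that of obr1 without any 1 of the 4 libraries (0.0561 to 0.171).

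Next to osr1 lies SPCC663.08c (chromosome III, 1647689 to 1648808), a short chain dehydrogenase gene on the same strand, at 211 and 258 CPM against 68.9 and 77.3 (log2 fold change 1.69, SE 0.17, adjusted p = 1.99e-05). Wild type had 28.1 and 27.2 CPM and nht1 119 and 162, so the order of the 4 groups was that of osr1. In the region before the annotated start, up to 250 bases that stop at the next gene, both genes carry 1 identical stretch of 81 bases. It begins 160 bases before the start of osr1 and 105 bases before that of SPCC663.08c, and occurs 2 times in the genome, at these places. Among the 194 called genes with such a window, only 1 other pair shared 20 bases or more, gdt1 and iec5, with 27 bases that occur 70 times in the genome. The windows, read 5′ to 3′ on the minus strand from the RefSeq genome of build ASM294v3 (III:1645877-1646126 and III:1648819-1649039), are shown to place the shared stretch, which is in capitals. The start of SPCC663.08c is placed differently in that annotation than in the counted one.

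osr1: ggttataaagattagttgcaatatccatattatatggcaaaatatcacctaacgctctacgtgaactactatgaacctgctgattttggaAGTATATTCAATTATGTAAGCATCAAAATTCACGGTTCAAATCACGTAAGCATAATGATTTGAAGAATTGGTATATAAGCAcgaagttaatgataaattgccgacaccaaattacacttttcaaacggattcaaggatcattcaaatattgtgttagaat

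SPCC663.08c: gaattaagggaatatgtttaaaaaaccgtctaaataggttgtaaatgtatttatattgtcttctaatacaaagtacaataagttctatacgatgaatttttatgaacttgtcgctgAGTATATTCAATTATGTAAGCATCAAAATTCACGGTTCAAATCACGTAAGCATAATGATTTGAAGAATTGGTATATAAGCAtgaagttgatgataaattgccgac

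The shared stretch of osr1 and SPCC663.08c holds a CCAAT box on the opposite strand, found on either strand in 32.4% of 4238 windows, 33.7% of 166 windows of higher genes and 42.9% of 28 windows of lower genes. The letters GATAA follow it in both windows and are found in 51.4% of all windows, 57.8% of those of higher genes and 60.7% of those of lower genes. The sites TGACGT (5.38% of all windows, 6.63% of higher and 7.14% of lower genes), TTAGTAA (9.93%, 13.9% and 7.14%) and ACGCGT (2.57%, 1.81% and 3.57%) are in neither window. The 2 transcripts share 84 of the 1074 stretches of 50 bases in osr1, so a part of their reads could fit either gene, and the sources used here do not give how such reads were counted. SPCC663.09c, the third dehydrogenase gene of the row, lies 231 bases from SPCC663.08c on the same strand and overlaps trm44. It was higher by less, at 274 and 298 CPM against 182 and 218 (log2 fold change 0.52, adjusted p = 0.0361), and its call ended in 8 alternatives (0.0584 to 0.296), among them without any 1 of the 4 libraries or either nht1 library.

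The 32 lower genes held few large differences but included regulators. SPBC887.17, a membrane transporter gene that overlaps hfi1 (chromosome II, 3575420 to 3578114), had 129 and 148 CPM in the libraries labelled iec1 and 500 and 470 in the iec5 libraries (log2 fold change -1.80, SE 0.16, adjusted p = 2.09e-06). Spp27, a subunit of the upstream activation factor of RNA polymerase I (chromosome III, 1831913 to 1834169), had 83.0 and 109 CPM against 251 and 252 (-1.38, SE 0.15, adjusted p = 3.09e-05). Cgs1, the regulatory subunit that holds protein kinase A inactive, had 133 and 167 CPM against 269 and 286 (-0.88, SE 0.14, adjusted p = 0.00133). In these 3 genes the 2 libraries labelled iec1 were the lowest of all 8, and those of nht1 came next. Prf1, a factor that works with the Paf1 elongation complex, had 178 and 189 CPM against 302 and 341 (-0.81, adjusted p = 0.00355), and here the nht1 libraries, at 179 and 170, lay with those labelled iec1. These 4 calls held throughout. Of 15 tested genes of RNA polymerase I and its factors, spp27 was the only one called, and the median of that list was 0.00.

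A pair of neighbouring chromatin genes were lower together. Cnp3, the fission yeast CENP-C homologue that binds CENP-A nucleosomes at centromeres (chromosome II, 4126318 to 4129456), had 56.4 and 61.4 CPM against 127 and 174 (log2 fold change -1.35, SE 0.17, adjusted p = 0.000112). Abp2, a protein that binds replication origin sequences (4130876 to 4133635), had 28.4 and 20.6 CPM against 49.7 and 44.9 (-0.97, SE 0.24, adjusted p = 0.0278). The 2 genes point away from each other across 1419 bases, and 2 noncoding features that reach from the gap into them on the opposite strand were lower too. SPNCRNA.1672 shares 591 bases with cnp3 and SPNCRNA.1673 shares 500 bases with abp2, so their counts can hold reads of these genes. SPNCRNA.1672 had 0.917 and 1.47 CPM against 9.88 and 7.58 (-2.77, adjusted p = 0.00507), and SPNCRNA.1673 had 6.42 and 2.35 against 20.4 and 15.2 (-2.11, adjusted p = 0.00468). Cnp3 was the only called gene of 19 tested in the CENP-A and inner kinetochore list, whose median was 0.20. The cnp3 call held throughout. That of abp2 ended without iec5 replicate 1, iec1 replicate 2 or iec5 replicate 2 (0.147, 0.159 and 0.0869) and with the 4 libraries alone (0.0645), that of SPNCRNA.1672 without iec1 replicate 1 or iec5 replicate 1 (0.0525 and 0.0641), and that of SPNCRNA.1673 without iec5 replicate 1 or iec1 replicate 2 (0.0785 and 0.122).

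Alp13, a chromodomain subunit of a Clr6 histone deacetylase complex that overlaps cnl2 and SPAC23H4.13c, had 32.1 and 48.5 CPM against 76.1 and 90.4 (log2 fold change -1.02, adjusted p = 0.00631). The gene mug162, which overlaps sst6, had 18.3 and 21.4 CPM against 40.9 and 38.8 (-0.99, adjusted p = 0.0272). The remaining lower genes among the 15 largest were SPBC530.07c, a TENA/THI family gene (-1.28, adjusted p = 0.0412), acl4, which overlaps nat1 (-0.77, 0.00633), the amino acid permease gene SPBC359.01 (-0.75, 0.0163), caf16 of the CCR4-Not complex, which overlaps fus1 (-0.72, 0.0102), pex7, an import receptor of peroxisomes (-0.72, 0.0156), the kinase gene psk1, which overlaps gyp3 (-0.72, 0.00776), and fio1, given below. The alp13 call ended without iec1 replicate 1 or iec5 replicate 2 (0.0688 and 0.0725), and that of mug162 without iec1 replicate 1, iec5 replicate 1 or iec5 replicate 2 (0.138, 0.119 and 0.104) and with the 4 libraries alone (0.0577). That of SPBC530.07c ended in 9 alternatives (0.0537 to 0.27), leaving out iec5 replicate 1, iec1 replicate 2, iec5 replicate 2 or any wild-type or nht1 library among them. Those of acl4 and psk1 ended without iec5 replicate 1 (0.0739 and 0.113), those of caf16 and pex7 without iec1 replicate 1 (0.0889 and 0.125) or iec5 replicate 2 (0.0715 and 0.265), and that of SPBC359.01 without iec1 replicate 1, iec5 replicate 1 or iec5 replicate 2 (0.155, 0.0892 and 0.0622).

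Iron genes went both ways, with 2 of 20 tested higher, 2 lower and a median of 0.12. The higher count was 0 without iec1 replicate 2 or iec5 replicate 2 and 1 without iec5 replicate 1. The lower count rose to 4 without iec5 replicate 2, was 1 without iec1 replicate 2 or either wild-type library, and was 0 without iec5 replicate 1 or with the 4 libraries alone. The higher ones were sib1, the synthetase of the siderophore ferrichrome, at 824 and 850 CPM against 563 and 525 (log2 fold change 0.62, SE 0.13, adjusted p = 0.00803), and php4, which represses iron-using genes when iron is scarce, at 57.3 and 64.3 against 29.3 and 31.2 (1.01, SE 0.21, adjusted p = 0.00775). The lower ones take iron into the cell. Fio1, the copper oxidase of the iron permease, had 34.4 and 30.8 CPM against 158 and 47 (-1.65, SE 0.39, adjusted p = 0.0199). Str3, a siderophore-iron transporter, had 2 and 0 counts against 32 and 10, a pooled ratio of 18.1 in favour of iec5 (exact 95% interval 4.72 to 155, counting error only; adjusted p = 0.0373). In both the iec5 libraries differed widely from each other, with replicate 1 over 3-fold above replicate 2. Without iec5 replicate 1 neither was called (adjusted p = 0.412 for fio1 and 0.3 for str3). DESeq2 and the fit of 4 libraries did not call fio1 (0.144 and 0.066), and the str3 call also ended without iec1 replicate 2 (0.179) or either wild-type library (0.0577 and 0.0565). That of php4 ended without iec5 replicate 1, iec1 replicate 2 or iec5 replicate 2 (0.0644, 0.0649 and 0.0538), and that of sib1 without iec1 replicate 2 or iec5 replicate 2 (0.0558 and 0.114).

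Genes near the right end of chromosome I were mostly higher in the libraries labelled iec1. Of 33 coding features within 100 kb of the right end of chromosome I, 15 passed the filter. Of these, 9 (60.0%) were higher in the libraries labelled iec1, beside 4.02% over all tested coding genes. All 15 had a log2 fold change above 0, with a median of 0.97. This end is described apart with its values known, so its share is not a test. A gene of low level can pass the filter through the group where it is high. SPAC750.01 had 6.42 and 7.64 CPM in the libraries labelled iec1 and 1.65 and 1.17 in the iec5 libraries. Wild type had 2.42 and 2.45 CPM of it and nht1 3.77 and 1.09, so it may have passed in this way. At the other 3 ends of chromosomes I and II, 43 genes were tested, of which 2 (4.65%) were higher (cmt2 and SPBC8E4.03), 1 was lower (str3) and 25 had a value above 0. The genes just inside and just outside 100 kb, SPAC922.04 and SPAC922.03, had log2 fold changes of 0.03 and 0.24. Higher calls went on beyond that distance: from 100 to 200 kb, 4 of 35 tested genes (11.4%) were higher, none was lower and 26 had a value above 0, with a median of 0.24. SPAC869.01, an amidase gene 56.9 kb from the end, had 19.3 and 18.2 CPM (42 and 62 counts) against 1.65 and 0 (5 and 0 counts), a pooled ratio of 24.1 (exact 95% interval 9.99 to 75.7, counting error only; log2 fold change 4.52, SE 0.69, adjusted p = 0.000717). Gdt1, a GDT1-like protein gene 38.4 kb from the end, had 8 and 16 counts in the libraries labelled iec1 and none in either iec5 library, at least 4.49-fold higher against a floor of 3 counts per library (0.931 CPM; adjusted p = 0.00468). Wild type and nht1 had 20 to 26 counts of gdt1, so counts of 0 were seen in the iec5 libraries alone. For SPAC869.01 wild type had 2 and 11 counts and nht1 27 and 25, so there the libraries labelled iec1 were the highest.

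The other called genes there had smaller differences of the same sign. Pfl9, a cell surface glycoprotein of the DIPSY family, had 51.4 and 34.7 CPM against 18.8 and 14.3 (log2 fold change 1.37, SE 0.27, adjusted p = 0.00583). Mel1, the secreted melibiase, had 19.3 and 17.3 CPM against 6.26 and 3.79 (1.86, SE 0.44, adjusted p = 0.0199). Yhb1, which detoxifies nitric oxide, had 202 and 240 CPM against 145 and 148 (0.60, SE 0.14, adjusted p = 0.0168). The remaining ones were SPAC750.01, an aldo/keto reductase gene (2.32, adjusted p = 0.0446), the sulfate transporter gene sul2 (1.0, adjusted p = 0.0434), the aldehyde dehydrogenase gene atd2 (0.70, adjusted p = 0.0211) and the transporter gene SPAC922.05c, which overlaps SPAC922.06 (0.74, adjusted p = 0.0369). The count of 9 was 4 without iec1 replicate 1, iec1 replicate 2 or iec5 replicate 1, and 1 without iec5 replicate 2. The call of SPAC869.01 held throughout, and that of gdt1 ended without iec5 replicate 2 alone (0.0508). That of pfl9 ended without iec1 replicate 1 or iec5 replicate 2 (0.0668 and 0.0866), that of mel1 without the same libraries (0.0693 and 0.205), that of yhb1 without iec5 replicate 1, iec1 replicate 2 or iec5 replicate 2 (0.11, 0.183 and 0.112), and that of SPAC750.01 in 9 alternatives (0.0604 to 0.292), among them without any 1 of the 4 libraries or either wild-type library. Those of atd2 and SPAC922.05c ended without any 1 of the 4 libraries (0.0691 to 0.147 and 0.0508 to 0.303), and that of sul2 in 6 alternatives (0.0586 to 0.34), among them without iec5 replicate 1, iec1 replicate 2, iec5 replicate 2 or either nht1 library. Pooling the right end of chromosome I with the other 3 gave 58 tested genes, 11 (19.0%) higher and 1 (1.72%) lower. Their median was 0.25. Over all tested coding genes 4.02% were higher and 0.688% lower. Of the 11, 9 lie at the right end of chromosome I, which was singled out with its values known. The other 3 ends gave 2 of 43 (4.65%), so the pooled share does not describe chromosome ends in general. The 11 became 6 without iec1 replicate 1, iec5 replicate 1 or iec1 replicate 2, and 2 without iec5 replicate 2.

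Of the 4 called genes from 100 to 200 kb, SPAC1039.06, annotated with D-serine ammonia-lyase activity and overlapping SPAC1039.07c, had 101 and 118 CPM against 68.5 and 75.8 (log2 fold change 0.61, adjusted p = 0.0387). The phosphatase gene SPAC1039.02 had 449 and 685 CPM against 249 and 397 (0.81, adjusted p = 0.027). The amino acid permease gene SPAC1039.01 had 64.2 and 69.6 CPM against 39.5 and 41.1 (0.73, adjusted p = 0.0321). In each of these 3 both iec1 values were above both iec5 values, as in every higher call. Snz1, a pyridoxal phosphate synthase of vitamin B6 synthesis, had 2490 and 3110 CPM against 1830 and 2140 (0.49, adjusted p = 0.0454), also without overlap. In this order the calls ended in 9, 5, 6 and 8 alternatives, with adjusted p of 0.0531 to 0.245, 0.0518 to 0.258, 0.0504 to 0.162 and 0.0581 to 0.335. All 4 ended without iec5 replicate 1, iec1 replicate 2 or nht1 replicate 1, that of SPAC1039.02 not without iec1 replicate 1 or iec5 replicate 2, that of snz1 not without iec1 replicate 1, and that of SPAC1039.01 not without nht1 replicate 2.

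**Figure D3:**
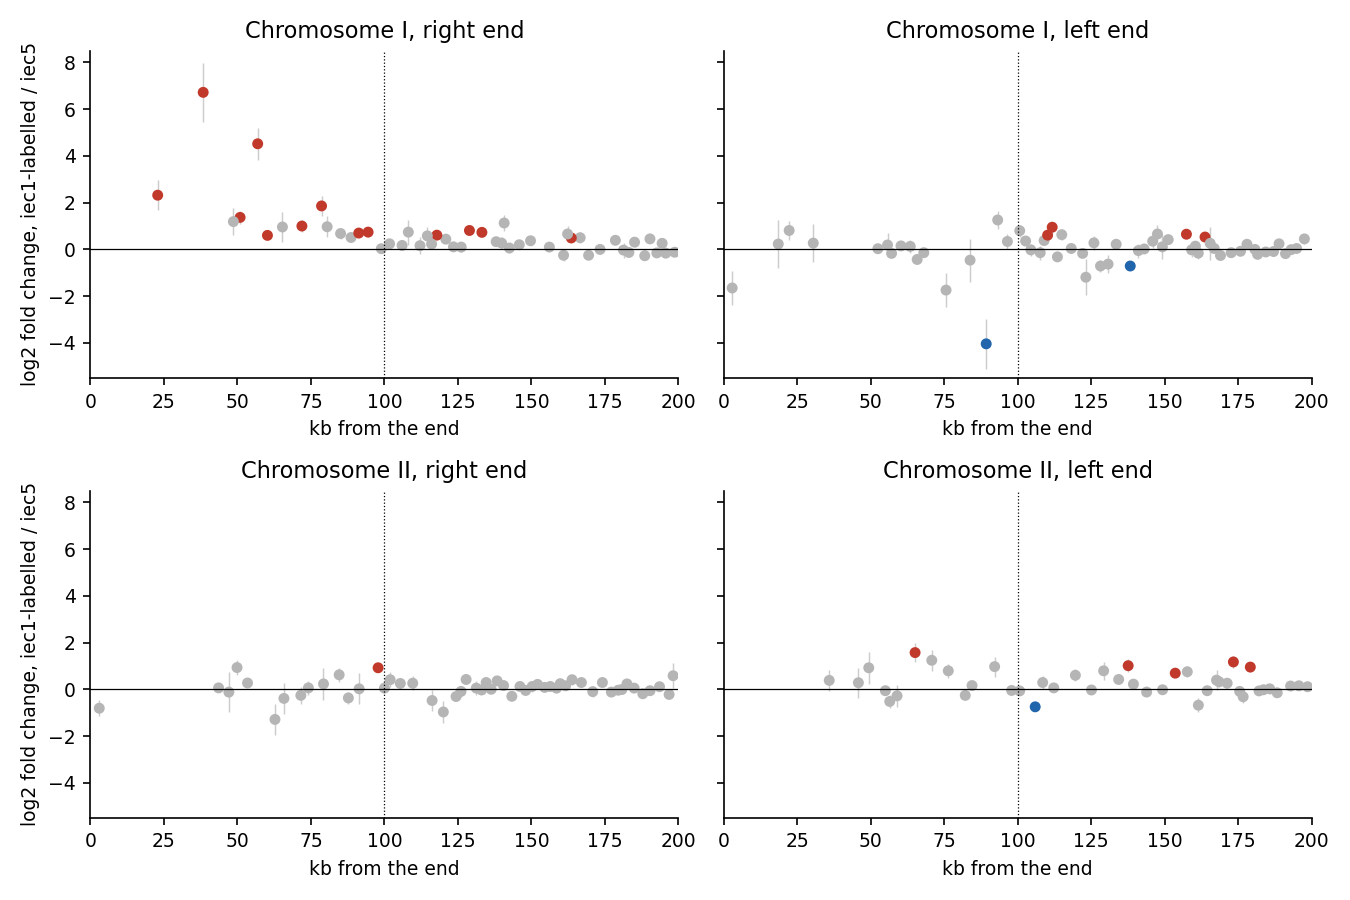
Log2 fold change (libraries labelled iec1 over iec5) of tested coding genes by distance in kb from each end of chromosomes I and II. Distance runs from the outermost coding feature at the right ends and from the start of the chromosome coordinates at the left ends. Bars are the SE, red called higher, blue called lower, grey not called, and the dotted line marks 100 kb. At the right end of chromosome I all 15 genes inside the line lie above 0, with gdt1, whose fitted value of 6.72 stands for 0 iec5 reads, and SPAC869.01 (4.52) at the top.

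Called genes also sat side by side elsewhere. Rows of 3 neighbouring genes, all higher, were tgp1 with SPBC1271.08c and SPBC1271.07c on chromosome II, and on chromosome III SPCC1529.01 with gcd1 and wtf5, the osr1 row, and xan1 with SPCC576.02 and tpx1. SPBC1271.07c, an N-acetyltransferase gene, had 525 and 633 CPM against 228 and 238 (log2 fold change 1.31, SE 0.16, adjusted p = 7.52e-05). SPBC1271.08c, which overlaps it on the same strand, had 159 and 133 CPM against 73.1 and 52.2 (1.22, adjusted p = 0.00155). Tgp1, the glycerophosphodiester transporter of the phosphate response, which overlaps SPBC1271.10c, had 52.7 and 42.9 CPM against 20.8 and 23.3 (1.10, adjusted p = 0.0125) and was the only called gene of 9 tested in the phosphate list, whose median was 0.21. SPCC576.02, a hydantoin racemase gene that overlaps SPCC576.19c, had 106 and 105 CPM against 42.5 and 40.0 (1.36, SE 0.18, adjusted p = 0.000157). Gcd1, a glucose-6-phosphate dehydrogenase gene, and wtf5, a meiotic drive suppressor, overlap each other and had log2 fold changes of 1.19 and 1.02 (adjusted p = 0.00524 and 0.00411). The calls of SPBC1271.07c, SPBC1271.08c and SPCC576.02 held throughout. That of tgp1 ended without iec1 replicate 1, iec5 replicate 1 or iec5 replicate 2 (0.0803, 0.0892 and 0.062), that of SPCC1529.01 without any 1 of the 4 libraries (0.0525 to 0.0892), that of gcd1 without iec5 replicate 1 (0.0734) and that of wtf5 without iec1 replicate 2 (0.0647).

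The chromatin lists are set beside the 4.02% higher and 0.688% lower of all tested coding genes. Of 36 tested genes of heterochromatin and RNA interference, 1 (2.78%) was higher and none lower, with a median of 0.06. That gene was nur1, which with Lem2 tethers silent chromatin to the nuclear envelope, at 43.1 and 42 CPM against 16.8 and 12 (log2 fold change 1.57, SE 0.29, adjusted p = 0.00372). Its level was 9.36 and 5.20 CPM in wild type, below all other libraries, and its call ended without iec5 replicate 2 (0.0645). SPCC4G3.12c, a ubiquitin ligase gene beside it, was higher as well, at 51.4 and 64.9 CPM against 16.8 and 21.3 (1.61, adjusted p = 0.00363). Of 31 tested genes of other remodelling complexes, 1 (3.23%) was higher, rsc1 of the RSC complex, at 140 and 124 CPM against 72.5 and 64.7 (0.94, SE 0.16, adjusted p = 0.00181), and the median was -0.01. Of 16 tested INO80 subunit genes, 2 (12.5%) were called, iec1 and iec5 themselves, and the median was 0.01. None of 10 histone genes was called by edgeR or DESeq2 (median 0.01, 1 at an unadjusted p under 0.05). The nearest was hhf2 of histone H4, at 521 and 424 CPM against 371 and 344 (0.40, adjusted p = 0.127). Nor was any of 5 tested Tf2 retrotransposons called by either tool (median 0.08, 1 unadjusted), whose near-identical copies share reads.

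The list of other mating genes held a call in each direction. Byr2, the kinase at the head of the pheromone cascade, had 142 and 176 CPM against 60.6 and 57.2 (log2 fold change 1.44, SE 0.17, adjusted p = 4.83e-05), which held throughout, and overlaps mrpl7. Byr1, the kinase that Byr2 activates, went the other way, at 116 and 131 CPM against 185 and 169 (-0.52, adjusted p = 0.0446), a call that ended in 9 alternatives (0.0519 to 0.268), among them leaving out any 1 of the 8 libraries. These were the 2 calls among 15 tested genes of that list, whose median was 0.28. As a check of mating type, none of 6 tested M-specific genes (median 0.22, 2 at an unadjusted p under 0.05) and none of 3 tested P-specific genes (median 0.14, none unadjusted) was called by edgeR or DESeq2. Of genes that serve as strain markers or in amino acid synthesis, 3 of 22 tested (13.6%) were higher and none was lower, beside 4.02% and 0.688% over all tested coding genes. They were arg3 of arginine and lys3 and lys4 of lysine synthesis, by log2 fold changes of 0.58, 0.52 and 0.50 (adjusted p = 0.0378, 0.0337 and 0.0219). Arg3 overlaps cmb1, and lys3 overlaps psr1 and SPAC227.17c. Each of these calls ended without some 1 of the 4 libraries (adjusted p = 0.0536 to 0.247), and without iec1 replicate 2, iec5 replicate 1 or iec5 replicate 2 none of the 3 remained.

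Genes of growth had no call in their largest lists. None of 84 tested ribosome biogenesis genes was called by edgeR or DESeq2, with 9 at an unadjusted p under 0.05. Their median was -0.14 and 64 of the 84 had a value below 0, such as nop4, at 362 and 328 CPM against 468 and 432 (log2 fold change -0.38, adjusted p = 0.116), and utp3 (-0.37, adjusted p = 0.125). None of 116 tested ribosomal protein genes was called by either tool (1 unadjusted), and their values ran from -0.21 to 0.38 with a median of 0.04. Glycolysis and fermentation had no call among 16 genes by either tool (3 unadjusted) and a median of 0.20, with enolase eno101 at 15200 and 11800 CPM against 11100 and 9920 (0.36, adjusted p = 0.197). The S phase targets of MBF had no call among 16 by either tool (3 unadjusted) and a median of -0.01, the nearest being ams2, a GATA factor for histone genes, at 116 and 121 CPM against 70.8 and 84 (0.61, adjusted p = 0.06). Ams2 passed in the fit of 6 deletion libraries (0.0473) and without wild-type replicate 1 or 2 (0.0398 and 0.0411). Among 8 tested mitochondrially encoded genes, SPMIT.04 was higher at 2790 and 2330 CPM against 1810 and 1510 (0.62, adjusted p = 0.00999), a call that ended without iec1 replicate 1 or iec5 replicate 2 (0.104 and 0.177), and the median was 0.23.

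The remaining lists held 1 to 3 calls each, beside 4.02% higher and 0.688% lower over all tested coding genes. Among glucose-repressed and hexose transport genes, 1 of 25 tested (mel1) was higher and 2 were lower (cgs1 and mae2), with a median of 0.09. Of 19 cell surface genes 2 were higher (pfl9 and mbx2) and 1 lower (cbf11), with a median of 0.08. Of 18 chaperone genes mdj1 was lower (-0.61, adjusted p = 0.0369; median -0.05), of 24 DNA damage genes tel1 was higher (0.49, adjusted p = 0.0378; median 0.05), and of 8 zinc genes adh4 was higher (0.65, adjusted p = 0.0235; median 0.03). Among 21 tested meiotic transcripts under control of the RNA-removal factor Mmi1, spo5 was higher (1.5, adjusted p = 0.0473; median 0.17), and of 18 wtf genes wtf5 was (median 0.17). Of these genes cbf11 overlaps uri1 and tfx1, mdj1 overlaps cue1, tel1 overlaps SPCC23B6.02c and spo5 overlaps pcf1. All of these calls except cgs1 ended in at least 1 alternative. Those of mbx2 and spo5 did so in 12 each (adjusted p = 0.0566 to 0.355 and 0.0512 to 0.232), with any 1 of the 8 libraries left out among them, that of tel1 in 9 (0.0512 to 0.274), that of mdj1 in 6 (0.059 to 0.177) and that of mae2 in 5 (0.0726 to 0.348). Without any 1 of the 4 libraries tel1 and mdj1 were not called, and mae2 was not without iec5 replicate 1 or iec1 replicate 2. The calls of cbf11 and adh4 ended without iec1 replicate 1 (0.103 and 0.14) or iec5 replicate 2 (0.205 and 0.288).

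**Figure D4:**
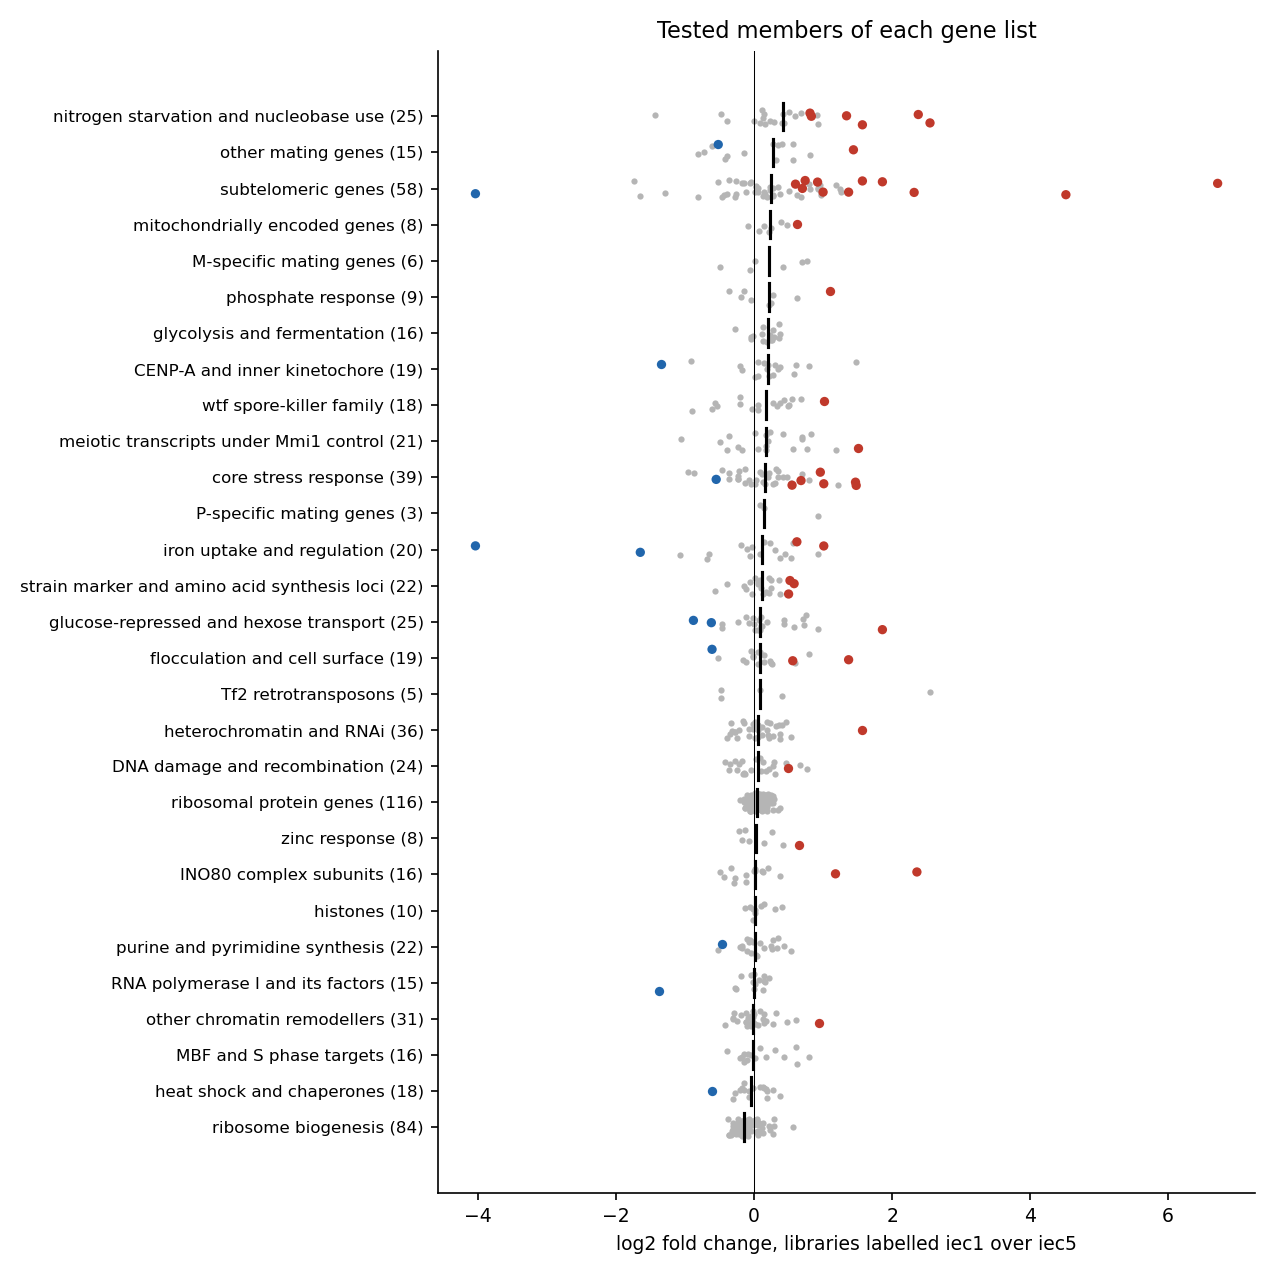
Log2 fold change (libraries labelled iec1 over iec5) of every tested member of 29 gene lists, ordered by the list median (black bar), with the number tested in parentheses; red called higher, blue called lower, grey not called. Nitrogen starvation and nucleobase use has the highest median (0.42) and ribosome biogenesis the lowest (-0.14).

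Noncoding features leaned the same way. Of 1096 tested, 85 (7.76%) were called, 76 (6.93%) higher and 9 (0.821%) lower in the libraries labelled iec1, and the median log2 fold change was 0.08. Of the 85, 71 lie opposite a coding gene, and 48 of these lie opposite a coding gene called in the same direction. Of all 1096 tested features, 732 lie opposite a coding gene, and 9.7% of these were called. Among the 220 tested features that overlap a coding gene on their own strand, 1.82% were called. SPNCRNA.1421, at 253 and 215 CPM against 38.2 and 35.6 (log2 fold change 2.66, adjusted p = 1.55e-11), shares 3513 bases with ppk31, and SPNCRNA.1292, at 771 and 892 against 169 and 170 (2.30, adjusted p = 3.08e-10), covers SPCC70.08c and reaches tmp1. SPNCRNA.1233, at 38.5 and 43.2 against 109 and 110 (-1.41, adjusted p = 4.1e-06), shares 884 bases with spp27. In each pair the feature and the gene had nearly the same log2 fold change, and which strand was transcribed cannot be told apart in these counts. Leaving out iec1 replicate 1, iec1 replicate 2, iec5 replicate 1 or iec5 replicate 2 gave 47, 48, 37 and 36 higher features and 6, 9, 3 and 4 lower.

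Features that overlap no coding gene do not have that limit. Of 144 tested, 8 were higher and 2 lower (6.94%), near the 7.76% called over all tested noncoding features. The lower ones lie end to end on the same strand of chromosome I: SPNCRNA.779 (1953735 to 1954811), at 3.67 and 2.06 CPM against 11.5 and 14.9 (log2 fold change -2.26, adjusted p = 0.014), and, 8 bases on, SPNCRNA.781 (1954820 to 1956332), at 6.42 and 14.7 against 24 and 50.7 (-1.76, adjusted p = 0.000965). The next gene on that strand, hsr1, which encodes a stress-related transcription factor, did not pass (-0.58, adjusted p = 0.0809). Among the higher ones was SPNCRNA.1172 on chromosome III, at 11.5 and 7.05 CPM against 1.32 and 1.75 (2.52, adjusted p = 0.0307). Tested and adjusted on their own, these 144 features gave 4 higher and 2 lower. SPNCRNA.781 lost its call without iec5 replicate 2 (0.105), SPNCRNA.779 without iec5 replicate 1, iec1 replicate 2 or iec5 replicate 2 (0.0528, 0.144 and 0.133), and SPNCRNA.1172 without iec1 replicate 1, iec5 replicate 1 or iec5 replicate 2 (0.207, 0.196 and 0.181) and in the test of these features alone (0.0872).

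**Figure D5:**
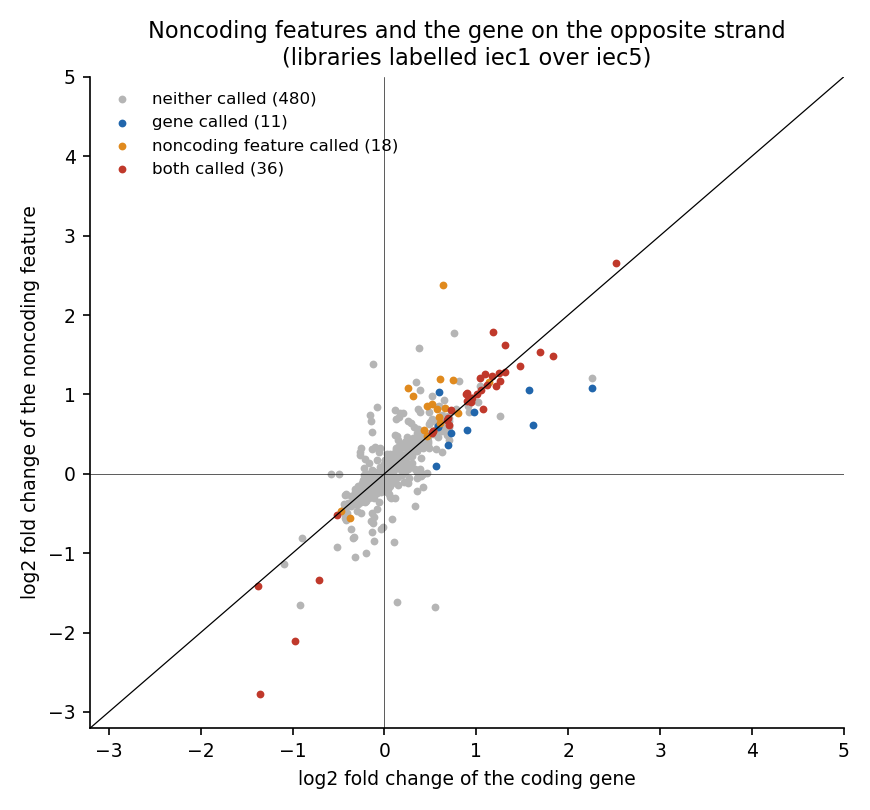
Log2 fold change (libraries labelled iec1 over iec5) of 545 tested noncoding features (y) and of the only coding gene each overlaps, on the opposite strand (x), with the line of equal value. The 36 pairs with both called (red) and most other pairs lie along the line, and SPNCRNA.1487 with mag2 (2.38 and 0.64) lies far above it.

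The libraries labelled nht1, which took no part in the contrast, lay between both strains in most called genes. Their mean was between the means of the libraries labelled iec1 and of the iec5 libraries for 181 of the 187 higher genes (96.8%) and for 28 of the 32 lower genes (87.5%). The genes were chosen for a wide gap, which makes a value inside it likely, and over all tested genes, with gaps of any size, the share was 48.0%. Exceptions among the genes described were gdt1, iec5, spo5, tpx1, tps1, abp2 and prf1, such as tps1 at 364 and 405 CPM in nht1, where the libraries labelled iec1 had 248 and 265. In a bulk culture a change in every cell and a change in a share of the cells cannot be told apart.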

How the data were processed

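RNA was sequenced in 8 libraries, of which the 2 labelled iec1 and the 2 labelled iec5 were compared. The tools named by the submitters' processing notes are HISAT2 2.1.0, an aligner, featureCounts 1.6.1, a read counter, and DESeq2 1.28.0, with the genome build ASM294v2. The values the authors deposited are whole-number counts per feature, in 1 coding and 1 noncoding table, with the feature length beside them. The sources used here give neither the strand setting nor the handling of reads with several matches. Symbols, products and upstream windows come from RefSeq (ASM294v3), matched by ID for 5115 of 5137 coding and 1428 of 1528 noncoding features, and coordinates are those of the files.

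The test was the quasi-likelihood F test of edgeR 4.0.16 (R 4.3.3), on the deposited counts, with TMM factors and filterByExpr at its defaults. All 8 libraries entered 1 fit and so share the estimated spread, with the contrast iec1 minus iec5. Noncoding features took the scaling of the coding table. The biological coefficient of variation was 11.9% (coding) and 13.1% (noncoding). Calls had a Benjamini-Hochberg adjusted p under 0.05, without a minimum fold. A standard error is the size of the log2 fold change divided by the root of its F statistic. Named were nht1, iec1 and iec5, the 15 largest calls each way with a mean log2 CPM above 2 and groups that do not overlap (5 each way for noncoding features), from each list up to 4 called members or up to 2 with the smallest p, and rows of 3 called neighbours. Genes given beside these (amt1, per1, tps1, obr1, hsr1, SPCC4G3.12c, sul2, atd2, SPAC922.05c, mag2, mns1, ade2, cmt2, SPBC8E4.03, SPAC922.03, SPAC922.04, SPAC1039.01, SPAC1039.02, SPAC1039.06, snz1) were chosen after their values were seen. The 29 lists hold 600 symbols typed in, of which 20 matched no feature, and 4 lists taken by annotation or position. The members and lists were chosen with earlier results of these data known. Alternatives were DESeq2 1.42.0, RLE factors, no filter, a replicate block, fits of 4 or 6 libraries, a 2-fold minimum and leaving out each library, and for noncoding features their own scaling and the features without overlap alone. Tests were tried on simulated data. Tables were made with pandas 2.3.3 under Python 3.11.15, exact intervals with scipy 1.17.1, other arithmetic with numpy 2.4.6 and figures with matplotlib 3.10.9.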

Additional observations from a re-analysis of the deposited data

How the results depend on the processing

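No called named feature changed sign in any alternative. Of 79 named calls, 27 held in all alternatives other than the 2-fold minimum and 52 ended in at least 1. The 219 coding calls (187 higher, 32 lower) became 92 (85 and 7) with a 2-fold minimum, and the lower genes became 18 with the 4 libraries alone. The 85 noncoding calls (76 higher, 9 lower) became 40 with a 2-fold minimum (34 higher), and 6 (4 and 2) where features without an overlap were tested alone. These totals stayed within 1.5 times under DESeq2, RLE factors, no filter, 6 libraries or the features' own scaling. Counts of 1 or 2 in a list did not always: purine and pyrimidine synthesis had 2 lower genes in place of 1 under DESeq2, RLE factors, no filter and 6 libraries, cell surface had 1 higher in place of 2 under DESeq2, RLE factors and 6 libraries, iron had 1 lower in place of 2 under DESeq2, the Mmi1 list had 0 higher in place of 1 under DESeq2 and 2 with no filter or 6 libraries, DNA damage had 0 in place of 1 under RLE factors and 6 libraries, and subtelomeric genes had 0 lower in place of 1 with 6 libraries. With the 4 libraries alone, cell surface (higher) and glucose-repressed genes (lower) had 1 in place of 2, iron had 0 lower, and there were 0 in place of 1 for Mmi1 and DNA damage (higher) and for subtelomeric, other mating, purine and core stress genes (lower). Of the 219 coding genes, DESeq2 also called 202, and the fit of 4 libraries 154.

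Leaving out 1 library at a time gave 86 to 210 coding calls (71 to 183 higher, 11 to 27 lower) and 40 to 95 noncoding calls (36 to 84 higher, 3 to 11 lower). With the replicate block there were 329 coding calls (65 lower), all 219 among them, and 130 noncoding calls (21 lower). Of named genes not called without it, the block called hhf2 (adjusted p = 0.0468), eno101 (0.0172), cdt1 (0.0408) and ams2 (0.0174). Called list members became 3 lower in core stress, 3 lower in iron, 3 higher in glucose-repressed genes, 3 higher in the Mmi1 list, and 2 each in the phosphate (higher), mitochondrial (higher) and purine (lower) lists. The labels do not say what the replicate number marks, and the samples were not taken as paired. The deviations of same-numbered libraries correlated across genes at 0.274 between iec1 and iec5, but at -0.0694 to 0.153 between the other pairs of groups. On the second principal component (13.8% of the variance), replicate 1 lay below 0 and replicate 2 above 0 in every group. Its values were -8.95 and 12 for iec1, -9.23 and 7.62 for iec5, -4.73 and 3.46 for wild type, and -0.854 and 0.731 for nht1. Replicate numbers thus differed along this axis in the compared groups too, and what they mark was not tested. Depth limits the genes of few counts, such as gdt1 and str3, where 3 counts equal 0.875 to 1.38 CPM.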
